A study of Mus musculus with 6 samples.

Results

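The 31 endothelial genes described here cover endothelial identity, leukocyte adhesion, haemostasis and vascular signalling, and were compared in the heart between DNMTs-Tg and wild-type mice. They were defined by name, as every probe set whose platform annotation gives 1 of the 31 symbols alone, and 57 of the 45101 probe sets on the array qualified. A filter on dim signals kept 51 of these 57, and 30 of the 31 genes were tested among 13634 genes. Sele did not pass the filter.

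Heart tissue was taken at 8 weeks from 3 DNMTs-Tg mice (replicates 1, 5 and 6) and 3 wild-type mice (replicates 1, 4 and 6), with 1 Affymetrix array for each. DNMTs-Tg mice descend from a cross of an FVB-Tg(Ddx4-cre)1Dcas/J female, whose Cre recombinase acts in germ cells, with a flox male. They make the de novo DNA methyltransferase isoform DNMT3A2 and its catalytically inactive partner DNMT3L in many somatic tissues for their whole life, grow slowly and die early. The transgenes are therefore not restricted to endothelium or to heart. The strain of the wild-type mice, and whether they were littermates or carried Cre, was not stated. The study looked for cardiac genes with altered expression, as candidates for added methylation, and DNA methylation was not analysed here.

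Endothelial cells line every blood vessel and the heart chambers and seal them through cadherin and claudin junctions. Their identity is maintained by transcription factors of the ETS family (Erg, Fli1 and Ets1 among them) and the SOXF family (Sox17, Sox18). When activated by inflammatory signals, endothelial cells bring P-selectin to their surface from the same storage granules that hold von Willebrand factor, and they make more E-selectin, ICAM-1 and VCAM-1, to which leukocytes bind.

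On the arrays, Dnmt3l had a log2 signal of 12.29 ± 0.09 in DNMTs-Tg and 5.31 ± 0.15 in wild-type hearts (SD, n = 3 each), so the transgene followed the labels. The sex given in the labels did not follow the sex-linked RNA. Xist, the X-inactivation transcript of female cells, was at 10.1 in wild-type replicate 4 and between 4.52 and 4.96 on the other 5 arrays, whereas the labels call wild-type replicate 6 male and the remaining 5 mice female. By this RNA the 3 DNMTs-Tg hearts were of male type and the wild-type group held 1 heart of female type, and the part of sex in the results was not tested beyond leaving out that heart. Cardiomyocyte markers were bright everywhere, with a mean log2 signal of 13.97 to 14.18 over 12 genes in DNMTs-Tg hearts and 14.17 to 14.19 in wild-type hearts. DNMTs-Tg replicate 1 stood apart for markers of other cell types. Relative to the wild-type mean, 11 macrophage markers averaged 1.36 (log2) in that heart, -0.09 in DNMTs-Tg replicate 5 and 0.01 in replicate 6, against -0.10 to 0.08 in wild-type hearts. The 12 fibroblast markers averaged 1.34, 0.38 and 0.20 in DNMTs-Tg replicates 1, 5 and 6, against -0.18 to 0.24 in wild-type hearts. Where leaving out this heart ended or made a call, turned the direction of a named change or moved it by over 1.5 times, the value without it is given too, for the 30 genes and the other genes named. The neutrophil genes Elane, Camp, Ngp and Ltf are exceptions, given with all 6 arrays only, although their changes also depended on this heart. RNA integrity was read from Gapdh, whose 3′ probe set exceeded its 5′ probe set by 0.53 to 0.75 (log2) in DNMTs-Tg and 0.40 to 0.50 in wild-type arrays, while the same difference for Actb was 0.91 to 1.40 in DNMTs-Tg and 1.09 to 1.25 in wild-type arrays and overlapped. The part of RNA integrity in the results was not tested.

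Promoter windows are shown for Robo4, Cldn5, Icam1 and Selp, the 4 tested genes with the smallest unadjusted p among the 13 of 31 that had an entry in the promoter table, because ETS factors act on endothelial genes through a GGAA core. Vwf, the only endothelial gene with an adjusted p under 0.05, had no entry, and the 4 genes shown did not pass that threshold. Each window runs from 250 bases before to 50 bases after the gene's start (RefSeq, GRCm38.p6, written 5′ to 3′ on the gene's strand). Capitals mark GGAA on either strand, so that TTCC is a match on the opposite strand. The Robo4 window lies at chr9:37401722-37402021 on the plus strand, Cldn5 at chr16:18776597-18776896 (plus), Icam1 at chr9:21015690-21015989 (plus) and Selp at chr1:164115014-164115313 (plus).
Robo4: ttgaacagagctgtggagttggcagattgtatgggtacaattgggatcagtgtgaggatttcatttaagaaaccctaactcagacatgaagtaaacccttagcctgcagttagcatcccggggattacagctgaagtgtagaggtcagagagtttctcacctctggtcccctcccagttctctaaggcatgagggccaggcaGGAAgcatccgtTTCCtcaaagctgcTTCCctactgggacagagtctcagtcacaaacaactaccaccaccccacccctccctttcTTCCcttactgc
Cldn5: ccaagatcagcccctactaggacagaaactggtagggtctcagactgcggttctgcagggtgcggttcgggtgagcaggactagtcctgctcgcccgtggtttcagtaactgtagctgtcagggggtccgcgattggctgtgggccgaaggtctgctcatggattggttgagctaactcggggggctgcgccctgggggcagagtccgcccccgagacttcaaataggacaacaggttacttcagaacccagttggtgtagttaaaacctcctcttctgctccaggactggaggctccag
Icam1: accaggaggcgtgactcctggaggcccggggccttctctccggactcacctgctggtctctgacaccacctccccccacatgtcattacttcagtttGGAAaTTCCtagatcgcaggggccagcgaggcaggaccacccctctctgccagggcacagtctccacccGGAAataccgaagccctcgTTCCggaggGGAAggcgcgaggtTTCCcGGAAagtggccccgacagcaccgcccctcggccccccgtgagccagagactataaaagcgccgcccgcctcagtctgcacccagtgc
Selp: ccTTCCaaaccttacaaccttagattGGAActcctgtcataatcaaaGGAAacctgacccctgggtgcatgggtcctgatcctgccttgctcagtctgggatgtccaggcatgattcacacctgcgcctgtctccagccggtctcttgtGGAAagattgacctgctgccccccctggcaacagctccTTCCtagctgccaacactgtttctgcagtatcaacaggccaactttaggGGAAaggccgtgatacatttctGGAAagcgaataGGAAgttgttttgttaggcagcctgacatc

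The GGAA core occurred 4 times in the Robo4 window, 7 times in Icam1, 8 times in Selp and 0 times in Cldn5. Of all 32851 promoter windows 96.0% held at least 1, with a median of 3. Among the 17 windows of the 13 endothelial genes, 16 held it, and Cldn5 was the exception. The letters ACAAT, a core of SOX binding, were in 4 of these 17 windows, those of Robo4, Calcrl, Emcn and 1 of the 3 Erg windows, and in 10192 of all 32851 windows. A strict NF-kappaB consensus, which has to begin with GGG, was in 0 of 17, against 4.51% of all windows. Sites that begin otherwise were not counted, so the 0 does not mean that these windows lack NF-kappaB sites. NF-kappaB sites can themselves contain GGAA, so the motifs may overlap. CpG dinucleotides, the substrate of DNA methyltransferases, numbered 2 in the Robo4 window, 12 in Cldn5, 19 in Icam1 and 4 in Selp, against a median of 7 over all windows. These counts describe the letters and no binding or methylation.

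Vwf was the endothelial gene that rose in DNMTs-Tg hearts. It encodes von Willebrand factor, the large glycoprotein that tethers platelets to injured vessel walls and carries clotting factor VIII. Its log2 signals were 10.20, 9.75 and 9.85 in DNMTs-Tg replicates 1, 5 and 6, against 8.80, 8.72 and 8.10 in wild-type replicates 1, 4 and 6. The lowest DNMTs-Tg heart lay well above the highest wild-type heart, and the groups did not overlap. The mean was 9.93 ± 0.24 in DNMTs-Tg and 8.54 ± 0.38 in wild-type hearts (SD, n = 3 each), a log2 change of 1.39 ± 0.21 (SE), or 2.63-fold (limma, adjusted p = 0.0177). Vwf has 1 probe set on this array, so there is no other reading of the gene here. In whole tissue, more cells of a type and more RNA per cell cannot be told apart.

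The remaining 29 tested genes did not pass the threshold of an adjusted p of 0.05. Thus 1 of 30 rose (3.33%), where 2.24% of all 13634 genes rose, and 0 of 30 fell, where 3.15% of all genes fell. Over all 57 probe sets tested without the filter, the Vwf probe set rose and 0 fell, against 0.799% and 1.31% of 45037 probe sets. At an unadjusted p under 0.05 there were 9 of 30 genes, 7 of them higher and 2 lower, a share of 30.0% beside 26.0% of all genes. These shares of genes past a p threshold lie near those of all genes and do not set the endothelial genes apart. Above 0 lay 19 of the 30 genes (63.3%), against 50.8% of all genes. The groups did not overlap for 10 genes that were higher in every DNMTs-Tg heart (33.3%, against 17.3% of all genes) and for 2 that were lower in every one (6.67%, against 17.6%). The median log2 change was 0.08 over the 30 genes (quartiles -0.06 and 0.33) and 0.01 over all genes (quartiles -0.19 and 0.21). Changes smaller than 0.25 in size were seen for 17 of the 30 (56.7%), and for 58.7% of all genes.

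**Figure D1:**
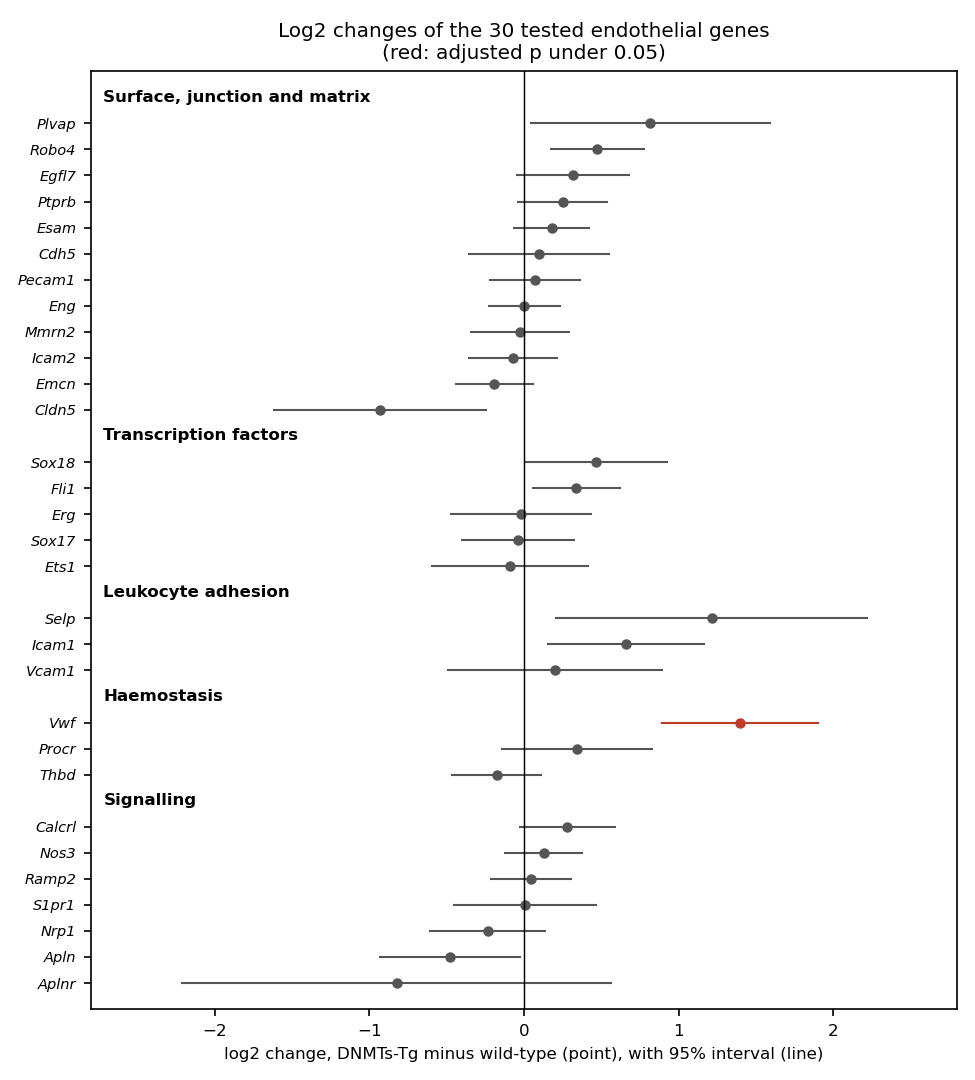
Log2 changes (DNMTs-Tg minus wild-type, x axis) of the 30 tested endothelial genes by role, with points for the limma estimate and lines for the 95% interval (3 hearts per group). Vwf, in red, passed the threshold at 1.39, while most of the surface and junction genes lie close to 0 and Aplnr has the widest interval, -2.21 to 0.56.

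Of the 12 surface, junction and matrix genes 0 passed the threshold, 3 had an unadjusted p under 0.05 (26.0% of all genes), and the median log2 change of the 12 was 0.08. Pecam1, the adhesion molecule CD31 of endothelial cell contacts, had log2 signals of 8.51, 8.25 and 8.47 in DNMTs-Tg against 8.19, 8.39 and 8.43 in wild-type hearts, and the groups overlapped. Its change was 0.07, with a 95% interval of -0.22 to 0.36. Cdh5, the endothelial cadherin of adherens junctions, had 9.72, 9.86 and 10.37 in DNMTs-Tg against 9.85, 9.69 and 10.12 in wild-type hearts, an interval of -0.36 to 0.55. Without DNMTs-Tg replicate 1 the changes were 0.02 for Pecam1 and 0.23 for Cdh5. Eng, a co-receptor for transforming growth factor beta, lay at 10.04 to 10.25 in DNMTs-Tg and 10.10 to 10.21 in wild-type hearts (change 0.00, interval -0.23 to 0.23, and -0.01 without DNMTs-Tg replicate 1). Intervals of similar width surrounded 0 for the junction adhesion gene Esam (-0.06 to 0.42), the sialomucin gene Emcn (-0.44 to 0.06), the leukocyte ligand gene Icam2 (-0.35 to 0.21), the matrix glycoprotein gene Mmrn2 (-0.34 to 0.29), whose changes of -0.07 and -0.03 were -0.03 and 0.06 without that heart, and the receptor phosphatase gene Ptprb (-0.04 to 0.54). Emcn was lower in every DNMTs-Tg heart (8.67, 8.74 and 8.92 against 8.96 to 8.99 in wild-type), and Esam was higher in every one (10.22, 10.24 and 10.46 against 10.10 to 10.15), by less than 0.2 on average in each case. The secreted endothelial factor gene Egfl7 had 8.67, 8.76 and 9.03 in DNMTs-Tg and 8.60, 8.26 and 8.66 in wild-type hearts by its brightest probe set, which did not overlap between groups (interval -0.04 to 0.68). Its 4 probe sets ranged from -0.11 to 0.33, and the brightest carries a suffix for probes shared with other transcripts. Probe sets also differed in sign for Cdh5 (-0.05 and 0.10), Eng (-0.07 and 0.002) and Mmrn2 (-0.03 to 0.11).

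Robo4, the endothelial member of the roundabout receptors, which stabilises vessel walls, came next to Vwf in p. Its log2 signals were 8.44, 8.55 and 8.79 in DNMTs-Tg replicates 1, 5 and 6, against 8.02, 8.17 and 8.17 in wild-type hearts. All 3 DNMTs-Tg hearts were higher, by 0.47 ± 0.13 on average (log2, SE, adjusted p = 0.0780). Without DNMTs-Tg replicate 1 the change was 0.55 and passed (adjusted p = 0.0419). In that fit 7.83% of all genes were called, against 5.39% with all 6 arrays.

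Cldn5, the principal claudin of endothelial tight junctions, stood in the opposite direction. It had 7.35, 6.72 and 7.62 in DNMTs-Tg replicates 1, 5 and 6, against 7.70, 8.20 and 8.57 in wild-type replicates 1, 4 and 6. Every DNMTs-Tg heart was lower, although replicate 6 came within 0.1 of wild-type replicate 1. The change was -0.93 ± 0.29 (log2, SE) and did not pass (adjusted p = 0.109).

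Plvap, the protein of the diaphragms of fenestrae and caveolae, had 8.77, 7.75 and 7.47 in DNMTs-Tg replicates 1, 5 and 6, against 7.43, 6.93 and 7.18 in wild-type hearts. DNMTs-Tg replicate 1 stood more than 1 log2 unit above all wild-type hearts, while replicate 6 barely cleared the highest of them. The change of 0.82 ± 0.33 (adjusted p = 0.173) was 0.43 without DNMTs-Tg replicate 1 (adjusted p = 0.179).

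**Figure D2:**
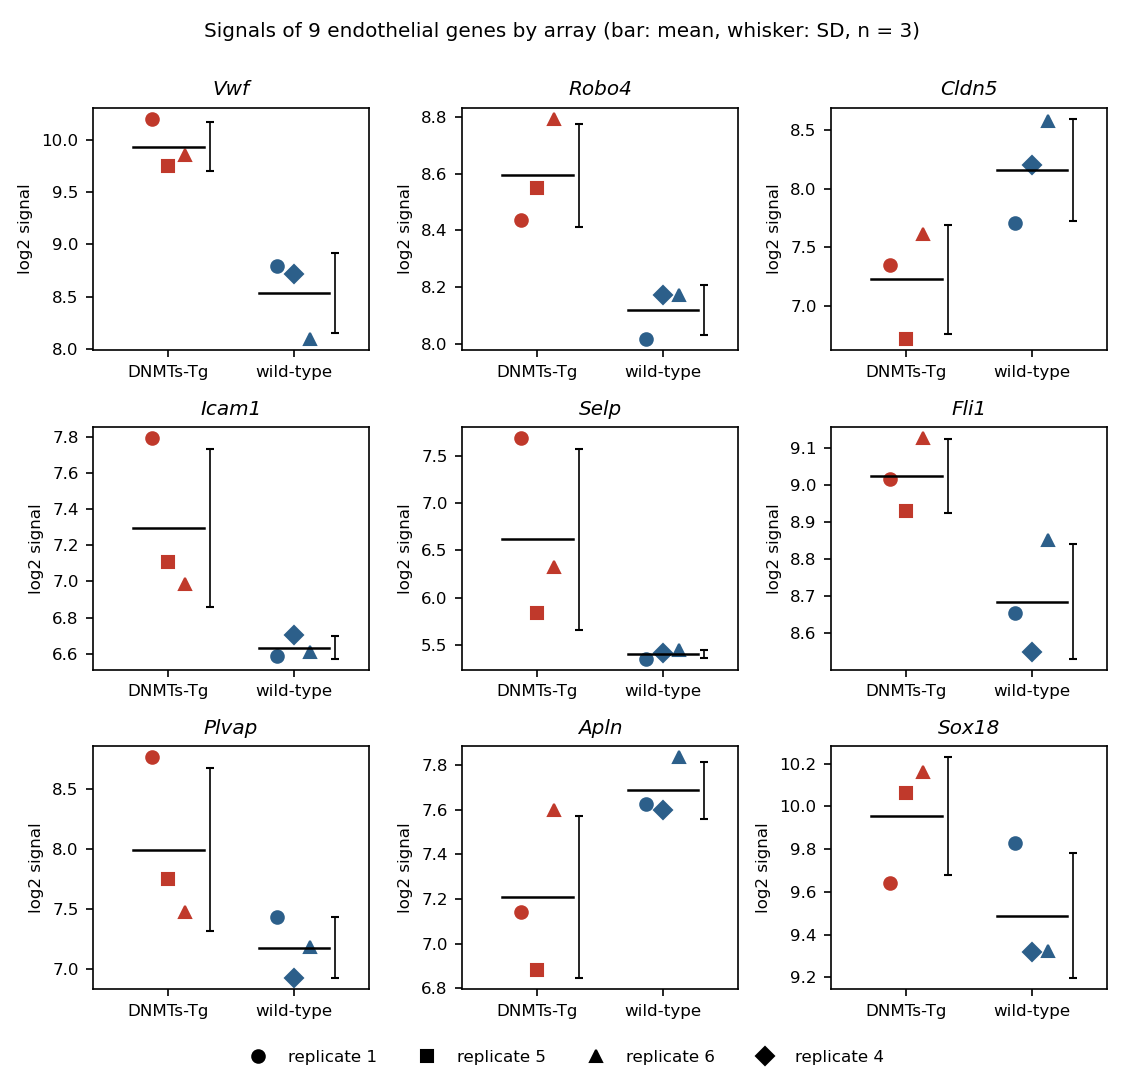
Log2 signals (y axis) on each array of the 9 endothelial genes with an unadjusted p under 0.05, with DNMTs-Tg hearts in red and wild-type hearts in blue, marker shapes for replicate numbers, bars for means and whiskers for the SD (n = 3). Vwf separates the groups by the widest margin, the highest values of Icam1, Selp and Plvap are those of DNMTs-Tg replicate 1, and the groups overlap for Apln, if narrowly, and Sox18.

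Of the leukocyte adhesion molecules, 0 of 3 tested genes passed. The size of their changes depended on DNMTs-Tg replicate 1, and for Vcam1 the direction did too. Selp (P-selectin, the receptor for rolling leukocytes) had log2 signals of 7.69, 5.83 and 6.32 in DNMTs-Tg replicates 1, 5 and 6, against 5.35, 5.41 and 5.44 in wild-type hearts. The wild-type hearts lay within 0.1 of each other and every DNMTs-Tg heart was above them, but 1 heart held most of the difference. The change was 1.21 ± 0.43 (adjusted p = 0.136), and 0.68 ± 0.16 without DNMTs-Tg replicate 1 (adjusted p = 0.0528). The other probe sets of Selp were dimmer, with changes of 0.55 and 0.52 and adjusted p of 0.314 and 0.476 without the filter.

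Icam1, a ligand of leukocyte integrins, behaved likewise, with 7.79, 7.10 and 6.99 in DNMTs-Tg replicates 1, 5 and 6 against 6.59, 6.71 and 6.61 in wild-type hearts. Again there was no overlap, and again replicate 1 was highest. The change was 0.66 ± 0.21 (adjusted p = 0.116), and 0.41 ± 0.11 without that heart (adjusted p = 0.0716). Vcam1, the ligand of integrin alpha 4 beta 1, had 9.01, 7.92 and 8.43 in DNMTs-Tg against 8.57, 8.31 and 7.89 in wild-type hearts. The groups overlapped, the change was 0.20 (interval -0.49 to 0.89), and it was -0.08 without DNMTs-Tg replicate 1. Its 3 probe sets differed in sign, from -0.10 to 0.22. Sele (E-selectin, made by activated endothelium) had 4.01, 3.87 and 3.54 in DNMTs-Tg and 3.64, 3.37 and 3.15 in wild-type hearts. All 6 values lay below the 40th percentile of their array, at 4.64 to 4.72, so no fold is given, and without the filter the adjusted p was 0.220.

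The mean of the 3 tested adhesion genes relative to wild-type was 1.40, 0.19 and 0.48 in DNMTs-Tg replicates 1, 5 and 6, against -0.12 to 0.07 in wild-type hearts. In the same DNMTs-Tg hearts the macrophage markers stood at 1.36, -0.09 and 0.01 and a list of 19 NF-kappaB and activation genes at 0.86, 0.30 and 0.05. The wild-type values of these lists were -0.10 to 0.08 and -0.10 to 0.13, so DNMTs-Tg replicate 6 lay within both ranges. Whether the macrophage signal has a part in the adhesion values was not tested.

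Besides Vwf, the haemostasis genes were the anticoagulant receptors Thbd and Procr. Thbd (thrombomodulin, which turns thrombin toward activating protein C) had 9.52, 9.79 and 9.51 in DNMTs-Tg against 9.89, 9.82 and 9.64 in wild-type hearts, with overlapping groups and an interval of -0.46 to 0.11. Procr (the endothelial protein C receptor) had 7.29, 6.62 and 6.53 in DNMTs-Tg replicates 1, 5 and 6 against 6.51, 6.40 and 6.49 in wild-type hearts. Its change of 0.35 (adjusted p = 0.328) was 0.11 without DNMTs-Tg replicate 1, and its probe set may be shared with other transcripts. Megakaryocytes and platelets also make and store von Willebrand factor and P-selectin. The 7 tested platelet markers, relative to wild-type, averaged -0.11, -0.59 and 0.46 across the DNMTs-Tg hearts in the same order, against -0.28 to 0.18 in wild-type hearts, and 0 of 7 passed the threshold. The part of platelet RNA in the Vwf and Selp values was not tested.

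The Vwf difference kept its direction with any 1 array left out, at 1.17 to 1.52, the extremes being the fits lacking wild-type replicate 6 and wild-type replicate 1, but not always its call. It stayed past the threshold without DNMTs-Tg replicate 1 (1.26, adjusted p = 0.0191), without DNMTs-Tg replicate 6 (adjusted p = 0.0223) and without wild-type replicate 6 (adjusted p = 0.0378). It did not when DNMTs-Tg replicate 5 was left out (adjusted p = 0.0629), nor when wild-type replicate 1 was (adjusted p = 0.0544), nor when the heart with Xist, wild-type replicate 4, was (1.49, adjusted p = 0.0583). In those 3 fits the share of all genes called was 1.04%, 0.902% and 1.19%. Vwf was higher in 3 of 3 DNMTs-Tg hearts.

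**Figure D3:**
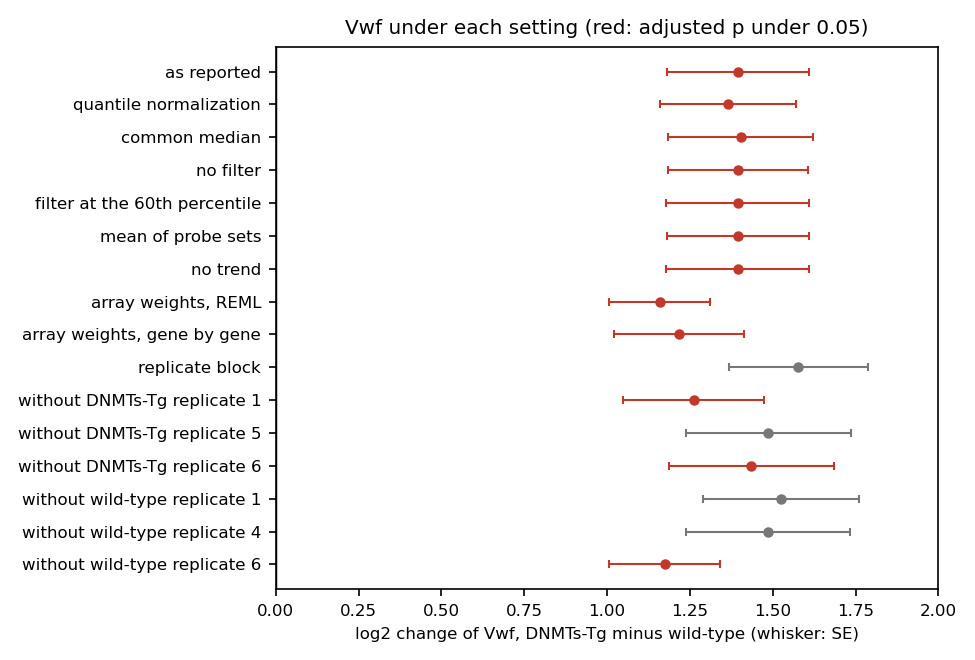
Log2 change of Vwf (x axis, DNMTs-Tg minus wild-type, point with SE whisker) under the reported setting and each alternative, in red where the limma adjusted p was under 0.05. The change lay between 1.16 and 1.58 in every setting shown, and it was not past the threshold with the replicate block or without DNMTs-Tg replicate 5, wild-type replicate 1 or wild-type replicate 4.

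Of the 5 transcription factors, 0 passed. Fli1, an ETS factor, was higher in every DNMTs-Tg heart, with 9.02, 8.93 and 9.13 against 8.65, 8.55 and 8.85 in wild-type hearts (change 0.34 ± 0.12, adjusted p = 0.136), and its second probe set gave 0.23. Sox18 had 9.64, 10.06 and 10.16 in DNMTs-Tg replicates 1, 5 and 6 against 9.83, 9.32 and 9.32 in wild-type hearts. Here the groups overlapped through DNMTs-Tg replicate 1 and wild-type replicate 1 (change 0.47 ± 0.19, adjusted p = 0.185). The other members of these families lay near 0. The intervals were -0.40 to 0.32 for Sox17, -0.47 to 0.43 for Erg and -0.60 to 0.41 for Ets1, and all probe sets of each had a change below 0 (Sox17 -0.12 and -0.04, Erg -0.09 and -0.02, Ets1 -0.15 to -0.07). Without DNMTs-Tg replicate 1 the changes were -0.18 for Sox17, 0.01 for Erg and 0.08 for Ets1. The Sox17 and Ets1 probe sets used carry the suffix for shared probes.

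Among the signalling genes, the apelin pair lay lower on average. Apln encodes the peptide apelin, a vasodilator, and Aplnr its receptor. Apln had 7.14, 6.88 and 7.60 in DNMTs-Tg replicates 1, 5 and 6 against 7.62, 7.60 and 7.83 in wild-type hearts, the highest DNMTs-Tg heart meeting the lowest wild-type heart. Its change was -0.48 ± 0.19 (adjusted p = 0.174), and it passed without DNMTs-Tg replicate 6 (-0.67, adjusted p = 0.0355), where 11.8% of all genes were called. Aplnr varied most of all 30 genes within DNMTs-Tg hearts, with 8.28, 9.52 and 10.73 in replicates 1, 5 and 6 against 10.16, 9.89 and 10.95 in wild-type replicates 1, 4 and 6. Its second probe set put the DNMTs-Tg hearts in the same order, with 6.18, 7.36 and 8.16. The change of -0.82 ± 0.59 (adjusted p = 0.409) was -0.21 without DNMTs-Tg replicate 1.

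Nos3, the endothelial nitric oxide synthase, had 8.01, 8.19 and 8.07 in DNMTs-Tg and 8.00, 7.88 and 8.01 in wild-type hearts, with an interval of -0.12 to 0.38. Calcrl, the receptor of adrenomedullin, was higher in every DNMTs-Tg heart, with 9.45, 9.08 and 9.31 against 9.06, 8.87 and 9.07 in wild-type hearts (change 0.28, adjusted p = 0.220). The gene of its partner protein, Ramp2, differed by 0.05 (interval -0.21 to 0.31). S1pr1, the receptor through which sphingosine 1-phosphate tightens the vessel barrier, differed by 0.01 (interval -0.45 to 0.46), and by -0.14 without DNMTs-Tg replicate 1. Nrp1, a co-receptor for vascular endothelial growth factor, differed by -0.23 (interval -0.61 to 0.14), and by -0.14 without DNMTs-Tg replicate 1, and its 4 probe sets ranged from -0.27 to -0.03.

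Which heart was highest differed between the endothelial genes. DNMTs-Tg replicate 1 had the highest signal of all 6 arrays for 10 of 30 genes (33.3%), a share near the 30.2% of all genes, among them Vwf, Selp, Icam1, Vcam1, Plvap and Procr, and the lowest for 5 (16.7%, against 30.1%), Aplnr, Nrp1, Ets1, Mmrn2 and Emcn. DNMTs-Tg replicate 6 had the highest signal for 11 genes (36.7%, against 16.4% of all genes), among them Cdh5, Esam, Robo4, Erg, Fli1 and Sox18. Surface, junction and matrix genes averaged 0.10, -0.05 and 0.20 in DNMTs-Tg replicates 1, 5 and 6 against -0.05 to 0.08 in wild-type hearts, and transcription factors 0.04, 0.03 and 0.33 against -0.10 to 0.06. Haemostasis genes averaged 0.74, 0.46 and 0.37 against -0.19 to 0.13, with Vwf as the main contributor. Signalling genes averaged -0.32, -0.25 and 0.10 against -0.10 to 0.14. In DNMTs-Tg replicate 1 the signalling mean was lowered mainly by Aplnr, at 8.28 against a wild-type mean of 10.33.

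**Figure D4:**
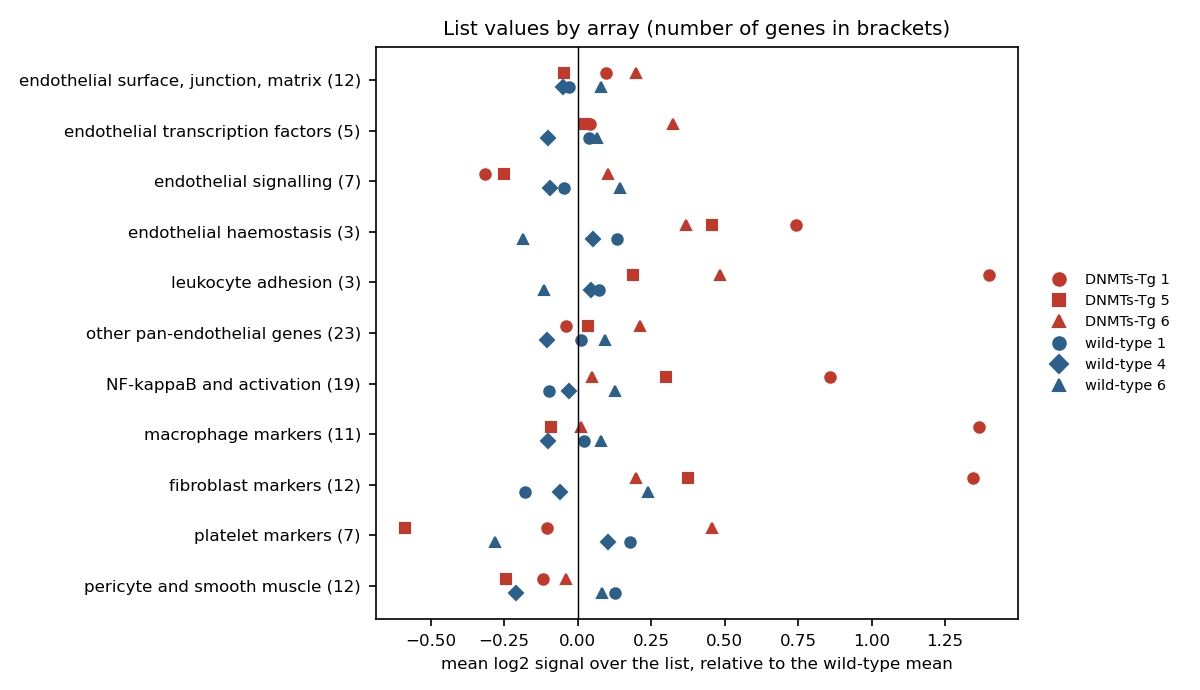
Mean log2 signal of each gene list on each array, relative to the wild-type mean (x axis), with DNMTs-Tg hearts in red and wild-type hearts in blue and the number of genes in brackets. DNMTs-Tg replicate 1 stands apart for leukocyte adhesion (1.40), macrophage (1.36) and fibroblast (1.34) lists. The mean of the 12 surface genes stays between -0.05 and 0.20 on all arrays, although single genes moved further (Plvap 0.82, Cldn5 -0.93).

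Other endothelial and vascular genes, on 11 further lists, showed 5 rises and 1 fall among 157 tested genes (3.82%), beside 5.39% of all 13634 genes, so their share of calls did not exceed that of all genes. Of 23 other pan-endothelial genes 1 rose, Adgrl4, an adhesion G protein-coupled receptor of angiogenic endothelium, with 9.93, 10.07 and 10.23 in DNMTs-Tg against 9.41, 9.49 and 9.52 in wild-type hearts (change 0.60 ± 0.11, adjusted p = 0.0284). The median of that list was -0.01. Of 13 capillary genes 1 fell, Car4, a carbonic anhydrase anchored to the capillary surface, with 7.34, 7.61 and 7.72 in DNMTs-Tg against 8.22, 8.10 and 8.18 in wild-type hearts (change -0.61 ± 0.13, adjusted p = 0.0458, median of the list -0.02). Each of these calls was kept in 2 of the 6 fits with 1 array left out. Of 20 other endothelial transcription factors 1 rose, Lmo2, a partner of blood and endothelial factors with 10.17, 10.28 and 9.64 in DNMTs-Tg against 9.27, 9.10 and 9.13 in wild-type hearts (0.86 ± 0.18, adjusted p = 0.0381, median of the list 0.02), kept in 2 of 6.

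Subtypes of endothelium other than capillary showed 0 calls. Of 12 arterial genes the smallest p belonged to Stmn2 (-0.55, adjusted p = 0.0701) and Notch4 (0.37, adjusted p = 0.160), with a list median of 0.08 and 3 genes at unadjusted p under 0.05 (26.0% of all genes). Of 10 venous and endocardial genes it belonged to Bgn (1.26, adjusted p = 0.110) and Selp, this one of the 31 described above, with a median of 0.07 and 4 such genes. The endocardial genes Cytl1 (-0.67, adjusted p = 0.150) and Npr3 (-0.30, adjusted p = 0.479) did not pass, nor did Nfatc1 (0.12, adjusted p = 0.520). Of 8 lymphatic genes Reln (0.87, adjusted p = 0.0505) and Foxc2 (0.60, adjusted p = 0.146) came first, with a median of 0.06 and 2 such genes. Without DNMTs-Tg replicate 1, Bgn (0.76, adjusted p = 0.0181) and Reln (1.06, adjusted p = 0.0113) passed, where 7.83% of all genes were called. The values in that fit were 0.24 for Notch4, 0.36 for Foxc2 and -0.41 for Cytl1.

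Around the adhesion molecules, 1 of 19 NF-kappaB and activation genes rose, the NF-kappaB subunit gene Relb, with 7.66, 7.46 and 6.86 in DNMTs-Tg against 6.39, 6.01 and 6.45 in wild-type hearts (1.04 ± 0.23, adjusted p = 0.0483), while 8 of the 19 had an unadjusted p under 0.05 (26.0% of all genes) and the median was 0.21. Its call was kept in 1 of 6 fits with 1 array left out, and not without DNMTs-Tg replicate 1 (0.87, adjusted p = 0.0574). Among 10 leukocyte genes for ligands of these adhesion molecules, 10 lay above 0 (median 0.36), where 50.8% of all genes did, 4 had an unadjusted p under 0.05 (26.0% of all genes), and 1 rose (2.24% of all genes), Cd44, a hyaluronan receptor that also binds E-selectin and that many heart cells make (2.82 ± 0.46, adjusted p = 0.0209), kept in 2 of 6. Cd44 had 11.22, 9.80 and 9.30 in DNMTs-Tg against 6.94, 7.32 and 7.58 in wild-type hearts, without overlap. The mean of the 10 genes was 0.87, 0.40 and 0.48 for DNMTs-Tg replicates 1, 5 and 6, beside the macrophage markers at 1.36, -0.09 and 0.01. This mean includes Cd44, whose change of 2.82 lies far above the list median of 0.36. A mean without Cd44 was not taken.

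Further pathways of vessel tone and clotting had few calls. Of 15 coagulation and fibrinolysis genes 3 had an unadjusted p under 0.05 (26.0% of all genes) but 0 passed, Serpinf2 (-0.40, adjusted p = 0.124) and Tfpi, the inhibitor of the tissue factor pathway (-0.68, adjusted p = 0.136), coming first, and the list had a median of 0.11. Of 12 genes of apelin, adrenomedullin and sphingosine 1-phosphate signalling 6 had an unadjusted p under 0.05 (26.0% of all genes) and 0 passed, the sphingosine 1-phosphate exporter gene Spns2 (1.03 ± 0.24, adjusted p = 0.0562) and Crcp (0.37, adjusted p = 0.0968) coming first (median 0.05). Spns2 passed without DNMTs-Tg replicate 1 (0.77, adjusted p = 0.0345), where 7.83% of all genes were called. Of 16 nitric oxide and endothelin genes 1 rose, Prkg1, the cGMP-dependent kinase through which nitric oxide relaxes smooth muscle. It had 9.01, 9.06 and 8.96 in DNMTs-Tg against 8.14, 7.70 and 8.00 in wild-type hearts (1.07 ± 0.14, adjusted p = 0.00970, median of the list 0.15), and its call was kept in 5 of 6 fits with 1 array left out.

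Markers of the cells around the endothelium give the setting of these values. Of 12 pericyte and smooth muscle markers 0 passed (median -0.07), with Myh11 (-0.49, adjusted p = 0.0900) and Pdgfrb (0.47, adjusted p = 0.147) first, and their list values were -0.25 to -0.04 in DNMTs-Tg and -0.21 to 0.13 in wild-type hearts. Of 12 fibroblast markers 0 passed (median 0.52), with Col1a2 (1.01, adjusted p = 0.132) and Postn (1.84, adjusted p = 0.143) first. Among 11 macrophage markers 0 passed (median 0.32), Ccr2 (1.44, adjusted p = 0.0509) and Cd163 (0.79, adjusted p = 0.252) being first. Platelet markers had a median of -0.10, with Itgb3 (0.57, adjusted p = 0.182) and Itga2b (0.21, adjusted p = 0.476) first. Of 6 neutrophil markers 2 rose (2.24% of all genes), S100a8 (1.86, adjusted p = 0.0221) and S100a9 (2.14, adjusted p = 0.0336), each call kept in 3 of 6 fits with 1 array left out. The other 4 did not pass (Elane 0.09, Camp 0.13, Ngp -0.21, Ltf 0.26) and the median was 0.20, while the list values, 0.63 to 0.76 in DNMTs-Tg against -0.26 to 0.33 in wild-type hearts, were carried by S100a8 and S100a9. Of 6 lymphocyte markers 0 passed (Ptprc 0.73, adjusted p = 0.206, and Cd3d 0.14, adjusted p = 0.436), of 2 erythroid markers 0 (Alas2 0.52, adjusted p = 0.757, and Slc4a1 0.16, adjusted p = 0.858), of 5 mesothelial and epicardial markers 0 (Aldh1a2 1.22, adjusted p = 0.172, and Wt1 0.14, adjusted p = 0.609) and of 12 cardiomyocyte markers 0 (Actn2 0.41, adjusted p = 0.0568, and Actc1 -0.18, adjusted p = 0.180). Without DNMTs-Tg replicate 1, Postn (0.99, adjusted p = 0.0411), Ccr2 (1.03, adjusted p = 0.00777) and Actn2 (0.35, adjusted p = 0.0423) passed, where 7.83% of all genes were called. In that fit the values were 0.62 for Col1a2, 0.33 for Cd163, 0.37 for Ptprc, 0.24 for Alas2, 0.24 for Slc4a1 and 0.61 for Aldh1a2.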

How the data were processed

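Each array has 1 value for each probe set as the authors deposited it, taken as log2 signals because all lay between 2.06 and 14.74 and array medians were 5.28 to 5.33. Which background correction, normalization and software the authors used was not stated, and no detection calls were used. Symbols came from the platform annotation and were updated to GRCm38.p6. Probe sets with several symbols were left out, among them those shared by Ramp2 and a neighbour. The filter required a signal above the 40th percentile of the array on 3 or more of the 6 arrays, and the brightest remaining probe set on average stood for its gene.

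Differences were tested 2-sided over 13634 genes with limma 3.58.1 in R 4.3.3 (lmFit, eBayes with trend), Benjamini-Hochberg adjusted, with a threshold of 0.05, after the steps were tested on simulated data. All probe sets were also tested without the filter. Every one of the 31 genes is named, and from each other list up to 4 genes past the threshold or else the 2 with the smallest p. Genes of the lists with no probe set of their own, or only dim ones, were not tested. The members and lists were chosen with earlier results of these data known. The labels do not say whether mice shared litters, so p-values measure only the spread between these hearts, and the number of arrays limits the precision. Alternatives covered normalization, the filter, probe set choice, the trend, array weights, a replicate block and leaving out each array.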

Additional observations from a re-analysis of the deposited data

How the results depend on the processing

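Quantile normalization, a common median, no filter, the 60th percentile, the mean of probe sets and no trend each left 1 of the endothelial genes rising, Vwf, and 0 falling. Array weights called more: 6 rose and 3 fell with the default estimate, which stopped before it converged and called 35.4% of all genes, and 3 rose and 2 fell (Icam1, Robo4 and Vwf, and Apln and Cldn5) with gene-by-gene weights, an alternative chosen after seeing the data, which called 16.8%. With 1 array left out, 0 to 2 rose and 0 to 1 fell, and the same held for 0 to 1 and 0 to 1 of the probe sets tested without the filter. The calls were 0 and 0 without DNMTs-Tg replicate 5, wild-type replicate 1 or wild-type replicate 4. With the label number as a replicate block, 0 rose and 0 fell, and 1 of all genes was called. Vwf then differed by 1.58 (adjusted p = 0.186). Only numbers 1 and 6 occur in both groups, and same-numbered hearts did not deviate together (r = -0.05 and -0.08 across genes). The median change of the 30 genes, 0.08, ranged from -0.0046 to 0.15 over the 15 settings. The estimate changed sign in at least 1 setting for 11 genes not past the threshold, Cdh5, Eng, Erg, Ets1, Icam2, Mmrn2, Pecam1, Ramp2, S1pr1, Sox17 and Vcam1, all within 0.20 of 0 as reported. The causes were not tested. Whether dim probe sets such as that of Sele lie above background is unknown.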
